A study of Mus musculus with 2 samples.

Results

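Lipoxygenases and cyclooxygenases turn unsaturated fatty acids into oxygenated lipids, and 10 genes of these routes were followed in mouse back skin. The members were listed by name, and each was read from every probe set whose platform annotation gives its symbol alone. Of the 10 genes, 8 had such a probe set, 12 probe sets in all among 22690 on the array, and 6 genes were measured among 8894 measured genes of the series. Alox5 and Ptgs1 had no probe set under their own name and were not analysed here. The tested animals were transgenic mice whose keratinocytes make an aryl hydrocarbon receptor (AhR) that is always active. They were set against wild-type mice without the transgene, and all were 10 days old. AhR is a transcription factor that normally answers to dioxins and related ligands. Each genotype is represented by 1 array, hybridised with biotin-labelled total RNA of whole back skin. The title of the transgenic sample reads K14Ahr, where K14 is the usual short form of keratin 14, a gene whose promoter is widely used to drive transgenes in basal keratinocytes. The labels do not give the number of animals or founder lines behind an array.

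The epidermis uses lipoxygenases for its barrier. The products of Alox12b and Aloxe3 act one after the other on linoleate held in ceramides of the outer epidermis, a step needed to build the lipid envelope of corneocytes, and loss of either enzyme causes ichthyosis in humans. Leukocytes use other members, Alox5 with its membrane partner Alox5ap, to make leukotrienes, which attract and activate inflammatory cells. Prostaglandins arise from arachidonic acid through the cyclooxygenases Ptgs1 and Ptgs2, followed by terminal synthases such as Ptges, and Hpgd degrades them.

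Signals are linear intensities as deposited, and a floor of 34.7, the 40th percentile of all signals, stood in for a detection limit. A gene counted as measured when its brightest probe set exceeded the floor on at least 1 array, and a difference against a signal below the floor is given as "at least". With 1 array per genotype no difference could be tested and no spread between animals is known. As a technical yardstick, log2 ratios of paired probe sets of the same gene gave an SD of 0.265 per probe set over 1764 genes. This SD leaves out the variation between animals and any error that the probe sets of an array share. The labels were checked against Cyp1a1, the classical AhR target, whose signal was 1801.7 on the transgenic and 40.8 on the wild-type array. Ahr itself, also looked at for this, differed little. It read 135.8 on the transgenic and 108.5 on the wild-type array by its brighter probe set, 1.25-fold higher. By the other it read 60.1 on the transgenic and 44.2 on the wild-type array, 1.36-fold higher. All 8 keratinocyte markers with a probe set, Krt5, Krt14 and Cdh1 among them, were above the floor on both arrays. In whole skin, more cells of a type and more RNA per cell cannot be told apart.

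Among the measured members, Alox5ap alone was at least 2-fold higher on the transgenic array, and none was at least 2-fold lower. Across all 8894 measured genes 2.27% passed the 2-fold limit upward and 1.09% passed it downward, so 1 of 6 is too small a count to set the members apart. At a 1.5-fold limit Alox5ap and Ptges were higher, 2 of 6 members, against 6.80% of all measured genes, and no member was lower, against 6.38%. The log2 ratio, taken as transgenic over wild type, lay above 0 for 5 of the 6 measured members and for 43.6% of all measured genes. Alox12b, among the 5, passed the floor on the transgenic array only, which fixes the sign of its bound. The median over the 6 members was 0.45, with Alox12b entered at its bound, and that over all measured genes was -0.05. On the signals as deposited, 10 of the 12 member readings were higher in transgenic skin, including 3 that were below the floor on both. These readings come from 8 genes, some read by 2 probe sets. The share over all probe sets was not computed, so the count does not set the members apart.

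**Figure D1:**
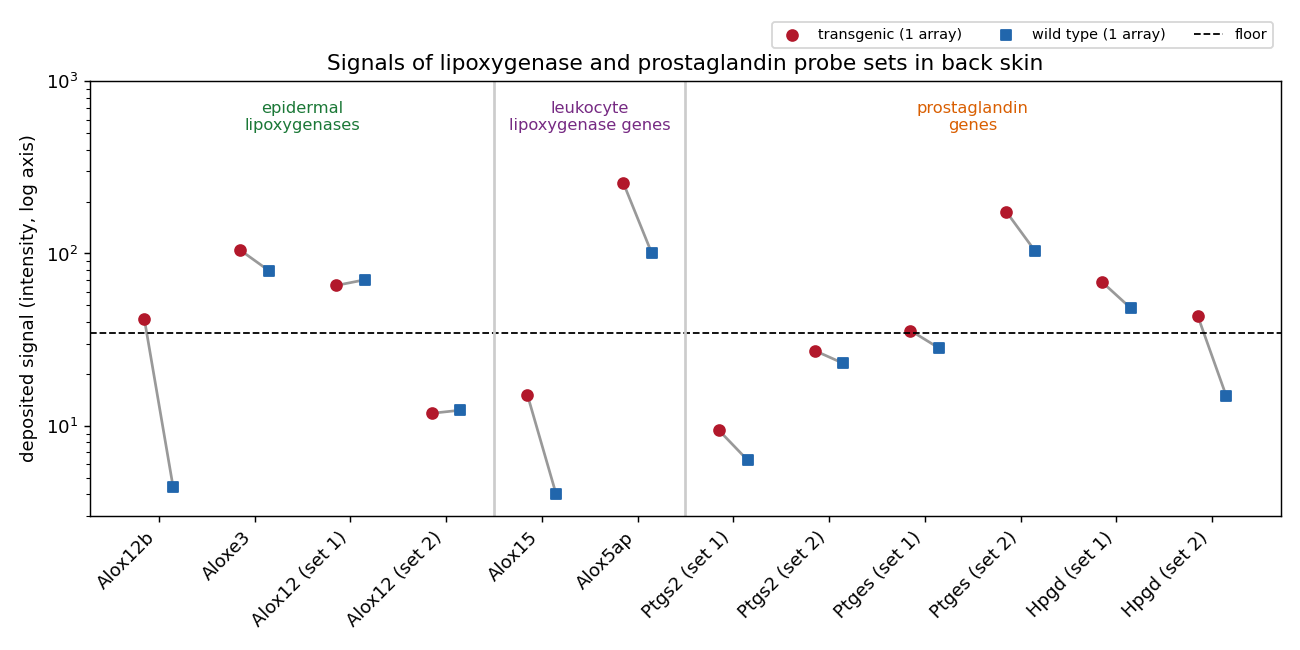
Deposited signal (log axis) of 12 probe sets in transgenic skin (red circles) and wild-type skin (blue squares), 1 array each, grouped by role; the dashed line is the floor of 34.7, and sets 1 and 2 are different probe sets of a gene. Alox5ap has the widest gap among those that exceed the floor in both genotypes (258.3 against 100), while Alox12b, 1 set of Ptges and 1 set of Hpgd exceed the floor in transgenic skin only.

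The epidermal lipoxygenases did not shift as a block. Aloxe3, which turns the hydroperoxide made by its partner Alox12b into an epoxyalcohol, had a signal of 104.7 in transgenic and 79.5 in wild-type skin, 1.32-fold higher (log2 ratio 0.40). This ratio exceeded the technical SD of 0.265 but was well under 2-fold, and 11.7% of all measured genes had a higher one. Alox12b, the enzyme of the first step, had a signal of 41.4 in transgenic skin, little above the floor, and of 4.4 in wild-type skin, far below it. Its difference is therefore at least 1.19-fold (log2 ratio at least 0.25), and its true size cannot be read from these arrays. With the floor lowered to the 20th percentile, a signal of 11.9, the bound became at least 3.48-fold, and with the floor raised to the 60th percentile, 70.7, the gene was not measured. Alox12, the platelet-type lipoxygenase that mouse epidermis also expresses, had a signal of 65.2 in transgenic and 70.3 in wild-type skin by its brighter probe set (log2 ratio -0.11). Its other probe set was below the floor on both arrays, at 11.8 in transgenic and 12.3 in wild-type skin. For Alox12 the arrays thus differed by less than the technical SD. The median log2 ratio of these 3 genes was at least 0.25, since it fell on the bound of Alox12b.

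Markers of keratinocytes are given beside Aloxe3 and Alox12b. Of 8 measured, 1 passed the 2-fold limit upward and none passed it downward, and they had a median log2 ratio of 0.65 and a summed signal of 17659.4 in transgenic against 10235.3 in wild-type skin. Krt1, a keratin of the spinous layer, was the gene past the limit at 2992.3 in transgenic and 489.1 in wild-type skin. The adhesion gene Cdh1 was at 0.02 and Trp63, the gene of an epithelial regulator, at -0.29. Among 6 measured platelet markers Pf4 alone passed 2-fold, upward, and the median was -0.04. Ppbp, another platelet chemokine gene, was below the floor on both arrays. The signal summed over all 7 with a probe set, Ppbp included, was 659.5 in transgenic against 526.2 in wild-type skin. Pf4 alone gave 311.2 of it in transgenic and 116.7 in wild-type skin, and 4 of the 6 measured markers had a log2 ratio below 0. The part of these cells in the lipoxygenase values was not tested.

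The lipoxygenase members with a probe set lie in a pair of small clusters on chromosome 11 in the gene order of the GRCm38.p6 annotation. Aloxe3, Alox12b and Alox8 are consecutive protein-coding genes, and so are Alox12, Alox12e and Alox15. In the first cluster neighbouring genes differed in direction by their signals, but only Aloxe3 was above the floor on both arrays. Alox8 passed the floor only on the wild-type array and Alox12b only on the transgenic array, which fixes the signs of their bounds. Alox8, an 8S-lipoxygenase of mouse skin and no member, had a signal of 25.6 in transgenic and 60.6 in wild-type skin, at least 1.75-fold lower in transgenic skin, beside the higher Aloxe3 and Alox12b. With the floor at the 20th percentile Alox8 passed the 2-fold limit, at a log2 ratio of at most -1.24. In the other cluster Alox12e, an epidermis-type lipoxygenase, had a signal of 329.4 in transgenic and 331.1 in wild-type skin (log2 ratio -0.01). Its neighbour Alox12 was at -0.11, and Alox15 was not measured.

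Of the leukocyte genes, Alox5ap alone was measured, and its difference passed 2-fold. It encodes the 5-lipoxygenase activating protein, which presents arachidonic acid to the enzyme at the nuclear membrane. Its signal was 258.3 in transgenic and 100 in wild-type skin, 2.58-fold higher (log2 ratio 1.37), and it ranked 90 from the highest among the 8894 measured genes. The gene has 1 probe set, so no second reading of it was to be had. Alox15, the leukocyte-type lipoxygenase of eosinophils and some macrophages, was below the floor on both arrays, with 15.1 in transgenic and 4 in wild-type skin, and no fold is given.

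Macrophage markers were higher beside Alox5ap, and the other leukocyte lists had fewer markers past 2-fold. Of 11 measured macrophage and monocyte markers, 8 passed the 2-fold limit upward and none passed it downward. Adgre1 (1.46-fold), Cd14 (1.78-fold) and Cd68 (1.96-fold) were higher but fell short. Csf1r passed by its brightest probe set (2.09-fold) but not by its others (1.59-fold and 1.37-fold). The count was 9 with median centring and 7 under the 60th percentile floor. The median log2 ratio of the 11 markers was 1.58, and the signal summed over the 12 listed genes was 2759.8 in transgenic against 926.1 in wild-type skin. C1qa, a complement chain made by tissue macrophages, had a signal of 305.7 in transgenic and 50.9 in wild-type skin. The mannose receptor gene Mrc1 read 327.9 in transgenic and 60.8 in wild-type skin. Itgam, an integrin of myeloid cells, was below the floor on both arrays. Of 7 measured mast cell markers only Cpa3 and Mcpt4 passed 2-fold, both upward, and the median was 0.80. The stem cell factor receptor gene Kit was at -0.46 and the antibody receptor gene Ms4a2 at -0.15, while Fcer1a and Hdc were below the floor on both arrays. The signal summed over all 9 mast cell genes was 990.7 in transgenic against 612.3 in wild-type skin. Of 5 measured neutrophil and eosinophil markers only Ngp passed 2-fold, upward, and the median was at least 0.31, since it fell on a bound. None of the 5 had a log2 ratio below 0. Mpo, a granule enzyme gene, was at 0.01. The signal summed over the 12 genes with a probe set was 526.9 in transgenic against 337.7 in wild-type skin. The eosinophil genes Ccr3, Siglecf, Prg2, Epx and Il5ra were all below the floor on both arrays, as was the neutrophil chemokine receptor gene Cxcr2. The part of these cells in the Alox5ap value was not tested.

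**Figure D2:**
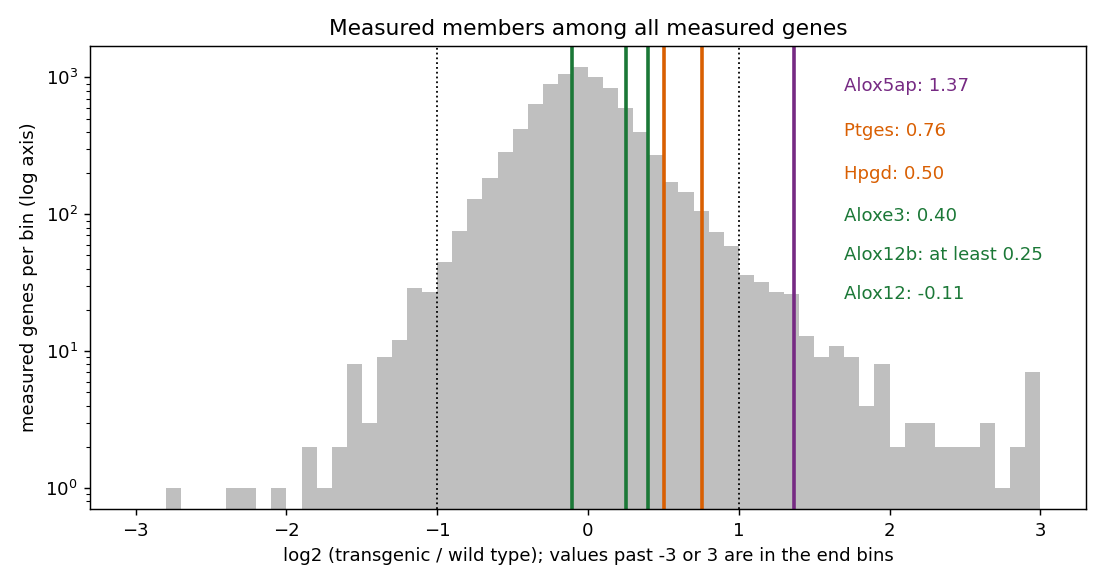
Number of measured genes (log axis) by log2 ratio (transgenic over wild type) in bins of 0.1 (grey bars, 8894 genes), with the 6 measured members as vertical lines coloured by role (green epidermal, purple leukocyte, orange prostaglandin); dotted lines mark 2-fold. Alox5ap at 1.37 is the member beyond 2-fold, and the other 5 lie between -0.11 and 0.76.

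The prostaglandin genes gave modest differences in the same direction for a synthase and for the degrading enzyme. Ptges, the inducible microsomal synthase of prostaglandin E, had a signal of 175.2 in transgenic and 103.6 in wild-type skin by its brighter probe set, 1.69-fold higher (log2 ratio 0.76). Its other probe set, at 35.7 in transgenic and 28.2 in wild-type skin, lay just at the floor and gave at least 1.03-fold. The mean over both sets was at least 0.40 on the log2 scale, because the dimmer set has only a bound. Hpgd, the dehydrogenase that starts prostaglandin breakdown, had a signal of 68.4 in transgenic and 48.2 in wild-type skin, 1.42-fold higher (log2 ratio 0.50). The name of that probe set carries a suffix that marks possible binding of related transcripts. The Hpgd probe set without a suffix read 43.5 in transgenic and 14.8 in wild-type skin, at least 1.25-fold higher. Both probe sets of Hpgd thus had the higher signal on the transgenic array. Ptgs2, the inducible cyclooxygenase, was below the floor on both arrays by both probe sets. These read 27.3 and 9.4 in transgenic skin, and 23.0 and 6.3 in wild-type skin in the same order, so no difference of Ptgs2 was detectable at this signal. The median of Ptges and Hpgd was 0.63.

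The RefSeq promoter table of GRCm38.p6 held 7 of the 10 members. The core motif of AhR response elements, GCGTG, was searched in the 250 bases before each start on both strands, where it reads CACGC on the opposite strand. It was present in 3 of the 7 windows, those of Ptgs2, Ptges and Hpgd, and in 28.2% of the 32851 windows of the table. The windows of Ptgs1, Alox5, Alox12b and Alox12 did not hold these letters. The prostaglandin windows that hold the motif are shown with it in capitals, with that of Alox12b for contrast, 5′ to 3′ along each gene. Those of Ptgs2 (chr1:150099781-150100030, plus strand), Hpgd (chr8:56294302-56294551, plus strand) and Alox12b (chr11:69156822-69157071, plus strand) run along the chromosome, and that of Ptges (chr2:30903298-30903547, minus strand) runs against it.
Ptgs2: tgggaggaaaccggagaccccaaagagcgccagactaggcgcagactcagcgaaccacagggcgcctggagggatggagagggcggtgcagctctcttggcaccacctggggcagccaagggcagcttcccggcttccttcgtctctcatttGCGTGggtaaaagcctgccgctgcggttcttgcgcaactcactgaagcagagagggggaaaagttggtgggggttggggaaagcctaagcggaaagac
Ptges: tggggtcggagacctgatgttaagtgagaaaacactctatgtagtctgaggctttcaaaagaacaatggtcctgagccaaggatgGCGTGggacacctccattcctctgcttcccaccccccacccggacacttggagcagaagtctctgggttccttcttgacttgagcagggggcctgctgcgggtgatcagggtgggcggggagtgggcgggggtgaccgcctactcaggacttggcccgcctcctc
Hpgd: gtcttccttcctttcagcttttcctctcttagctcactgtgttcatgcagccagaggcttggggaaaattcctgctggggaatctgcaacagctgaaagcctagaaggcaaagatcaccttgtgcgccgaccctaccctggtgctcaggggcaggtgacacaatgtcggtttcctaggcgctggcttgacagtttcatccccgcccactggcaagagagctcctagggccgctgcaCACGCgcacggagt
Alox12b: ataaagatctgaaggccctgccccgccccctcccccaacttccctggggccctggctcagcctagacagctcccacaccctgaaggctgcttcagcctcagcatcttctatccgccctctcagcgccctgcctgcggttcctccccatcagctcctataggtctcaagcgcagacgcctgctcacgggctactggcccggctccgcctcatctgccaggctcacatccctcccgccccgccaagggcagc
The first base of the motif lies 98 bases before the start of Ptgs2, 165 before that of Ptges and 14 before that of Hpgd, where it is on the opposite strand. Of these 3 genes, Ptges and Hpgd had the higher signal in transgenic skin and Ptgs2 was not measured. Without the motif, Alox12b was at least 1.19-fold higher in transgenic skin, Alox12 was at a log2 ratio of -0.11, and Ptgs1 and Alox5 were not analysed. Aloxe3, Alox15 and Alox5ap had no window, so motif and direction could not be compared over the members. A match is a run of letters and shows no binding.

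The genes that feed, extend or sense these routes showed single differences in both directions. Over 91 listed genes of 4 groups, 48 were measured, of which 3 passed the 2-fold limit upward and 2 downward, with 0.06 as the median of their log2 ratios. Among 11 measured phospholipases A2 and other lipases, which release or remodel the fatty acid substrates, 1 passed the limit upward and 1 downward. Pla2g7, a secreted phospholipase that inactivates platelet-activating factor and is made by macrophages, had a signal of 91.1 in transgenic and 36.0 in wild-type skin, 2.53-fold higher, although its wild-type signal lay barely above the floor. Pla2g2e, a secreted phospholipase of mouse hair follicles, had 208.8 in transgenic and 456.8 in wild-type skin, 2.19-fold lower in transgenic skin. Pla2g2f, a secreted phospholipase of the upper epidermis, had log2 ratios of 0.55 and 0.54 by its 2 probe sets. The cytosolic phospholipase gene Pla2g4a, the main supplier of arachidonic acid, was at -0.21.

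Among 17 measured other eicosanoid enzymes, 2 passed the limit upward and 1 downward, and the median was -0.01. Cbr3, a carbonyl reductase, had a signal of 219.4 in transgenic and 87.7 in wild-type skin, 2.50-fold higher. Mgst2, a membrane glutathione transferase able to make leukotriene C, had 86.9 in transgenic and 29.0 in wild-type skin, at least 2.50-fold higher. The dedicated leukotriene enzymes downstream of Alox5ap differed by less than 2-fold. Ltc4s, the leukotriene C synthase, read 58.0 in transgenic and 70.3 in wild-type skin, and Lta4h, which makes leukotriene B, read 209.9 in transgenic and 227 in wild-type skin by its brightest probe set (log2 ratio -0.11) but had a log2 ratio of 0.34 by another. Ptgds, the lipocalin-type synthase of prostaglandin D, had 226.8 in transgenic and 511.5 in wild-type skin, 2.26-fold lower in transgenic skin. Its second probe set gave 79.7 in transgenic and 146 in wild-type skin, a log2 ratio of -0.87, the same direction but short of 2-fold. Hpgds, the haematopoietic synthase of prostaglandin D, was below the floor on both arrays.

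Of 8 measured receptors and transporters none was called at 2-fold, though Ltb4r1 has only a bound, and the other 11 with a probe set were below the floor on both arrays. Ltb4r1, the high-affinity leukotriene B receptor of leukocytes, had a signal of 66.7 in transgenic and 4.8 in wild-type skin, at least 1.92-fold higher. It passed 2-fold with the lower floor (log2 ratio at least 2.49), with a pseudocount of 16 (1.99) and with lowess centring (at least 1.01). Slco2a1, the prostaglandin uptake transporter, had a log2 ratio of 0.56, and the prostaglandin E receptor gene Ptger4 was at -0.37 and Gpr132 at -0.36.

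Barrier genes listed beside Alox12b and Aloxe3 did not differ by 2-fold in any of 12 measured cases, and their median log2 ratio was -0.14. Most are lipid genes, but the 12 also include the transglutaminase genes Tgm1 and Tgm3, and Asprv1. Elovl1, an elongase of very long fatty acids, was the highest at 711.7 in transgenic and 365.7 in wild-type skin (log2 ratio 0.96), followed by the cholesterol sulfotransferase gene Sult2b1 (0.58). Centring the ratios on their median put Elovl1 just past 2-fold, at 1.01. Acer1, an epidermal ceramidase gene, was the lowest with 166.5 in transgenic and 298.9 in wild-type skin (-0.84), and Tgm3, a transglutaminase of hair and epidermis, was at -0.77. Of the 25 genes listed, 13 had no named probe set here, among them Abca12, Cers3 and Sdr9c7, so the part of the route nearest to the 2 lipoxygenases was largely not analysed here.

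**Figure D3:**
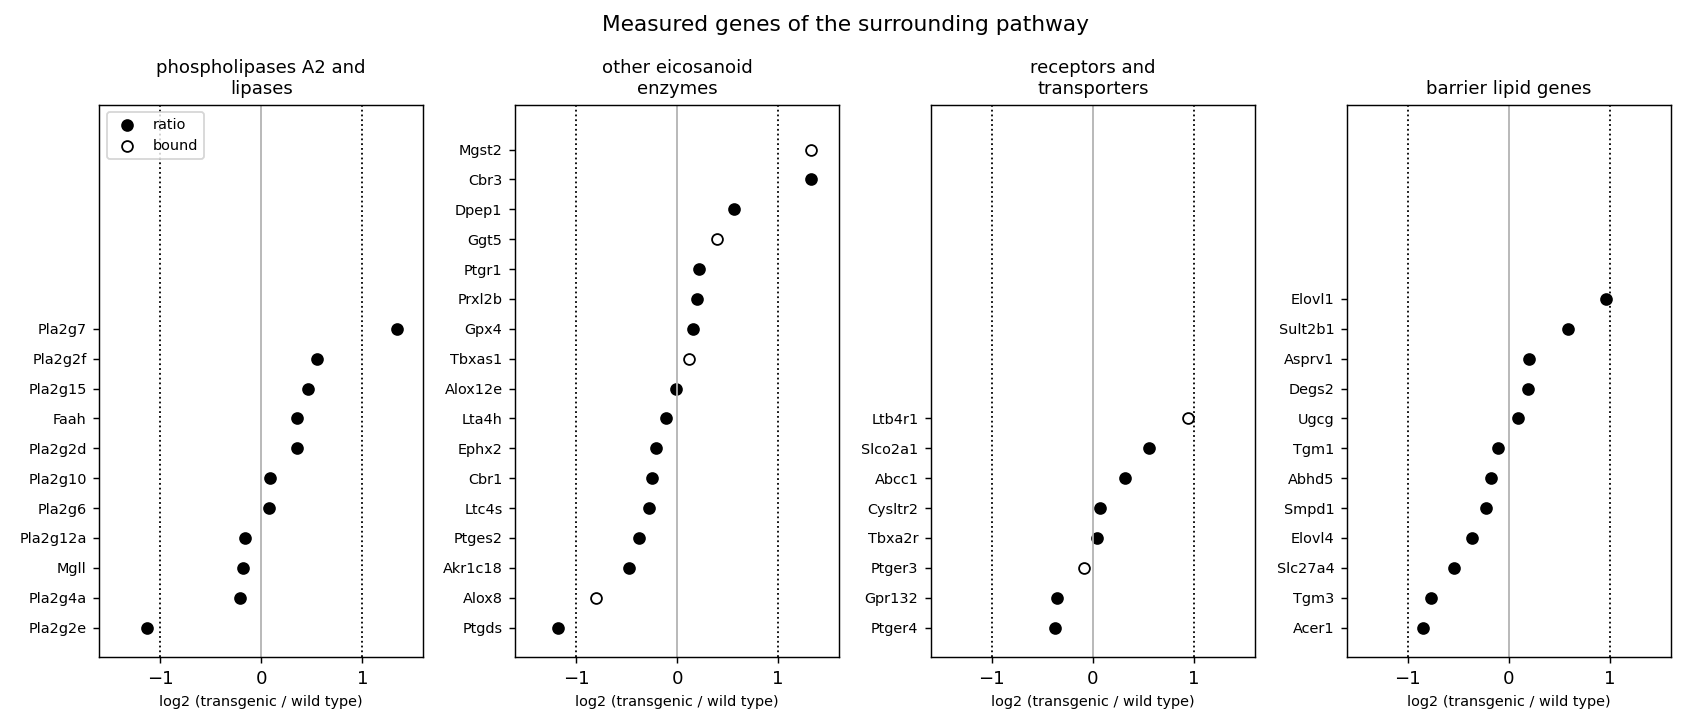
Log2 ratio (transgenic over wild type) for the 48 measured genes of 4 pathway groups, each point a gene read by its brightest probe set; filled points are above the floor on both arrays, open points are bounds, and dotted lines mark 2-fold. The points past 2-fold are Pla2g7, Cbr3 and Mgst2 on the higher side and Pla2g2e and Ptgds on the lower side.

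The order of the measured members by log2 ratio was Alox5ap (1.37), Ptges (0.76), Hpgd (0.50), Aloxe3 (0.40), Alox12b (at least 0.25) and Alox12 (-0.11). Alox5ap stood 0.61 above Ptges, more than the technical SD of 0.375 for a difference between 2 probe sets. Neighbours from Ptges to Aloxe3 lay within that SD of each other, and the place of Alox12b is not known because its value is a bound. A comparison across animals could not be made for any of them.

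**Figure D4:**
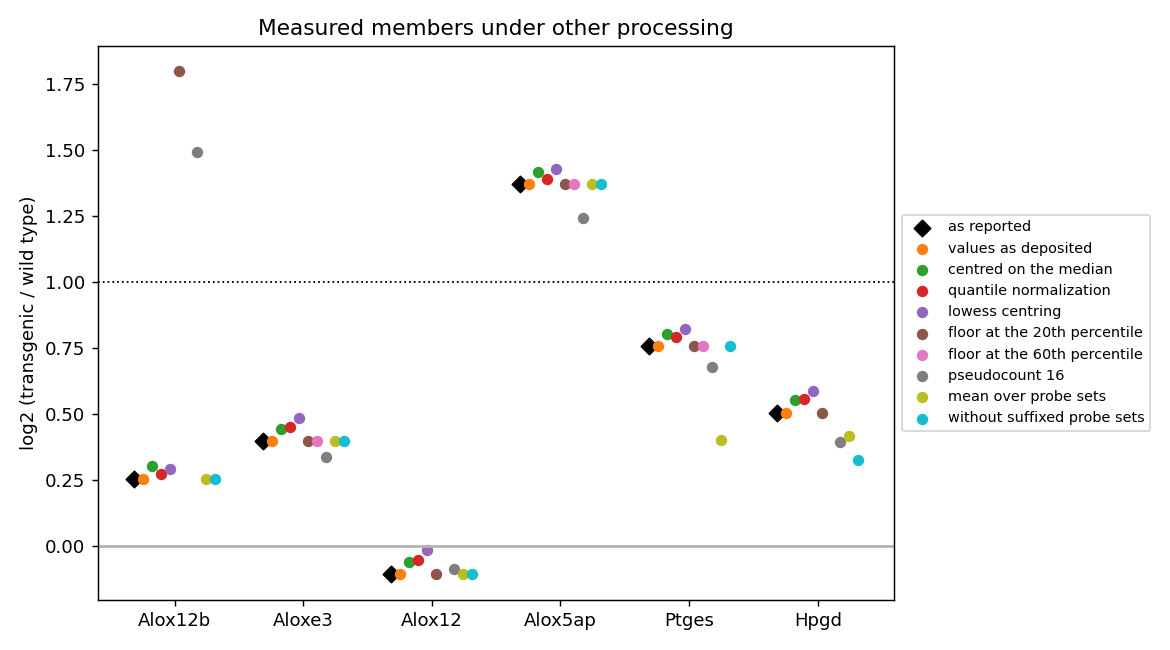
Log2 ratio (transgenic over wild type) of the 6 measured members as reported (black diamonds) and under 9 other ways of processing (coloured points); the dotted line marks 2-fold. Alox5ap stays between 1.24 and 1.43 and Alox12 between -0.11 and -0.02, while Alox12b runs from a bound of 0.25 to 1.80 and Ptges from 0.40, a bound too, to 0.82.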

How the data were processed

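Deposited by the authors was 1 linear intensity for each probe set of each array. Leaving out the top and bottom 2%, the intensities averaged 100.03 in either genotype, which shows a common scaling ahead of deposit. How they were computed from the scans is not given here, and detection calls were not used. Per the labels, genotype came from the source names. Besides 64 controls, 20380 probe sets carried a single gene in the 2016 platform annotation, 691 carried more than that and 1555 carried none. Names were given to the first kind alone, with symbols updated through gene identifiers.

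Signals were rescaled to equal trimmed means, raised to the floor and put on the log2 scale, and the brightest probe set, by the sum of both signals, stood for its gene. A 2-fold difference made a call, without a test, since each genotype has 1 array, and this number limits the precision. Every probe set of the members is named, together with the 2 highest, the 2 lowest and all called genes of each pathway list. Alox12e, Ltc4s, Lta4h, Hpgds and the unmeasured barrier genes named were chosen after their values were seen. Members and lists were chosen with earlier results of these data known. The calculation was tested on simulated arrays. Known changes were put there only on genes well above the floor, so that test does not cover signals near it. The alternatives were the deposited scale, median, quantile and lowess centring (span 0.4), other floors, a pseudocount of 16, the mean over probe sets, no suffixed probe sets, and limits of 1.5-fold and 3-fold. Calculations used Python 3.11.15, pandas 2.3.3, scipy 1.17.1 and statsmodels 0.14.6.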

Additional observations from a re-analysis of the deposited data

How the results depend on the processing

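The count of members at least 2-fold higher was 1 as reported. It was 2 with a pseudocount of 16 and also 2 with a floor at the 20th percentile, where Alox12b joined Alox5ap, and it was 2 at a 1.5-fold limit, where Ptges joined, and 0 at a 3-fold limit. Under all other alternatives it was 1, and no member was at least 2-fold lower under any alternative. The set of measured members changed with the floor, from 6 as reported to 8 under the 20th percentile floor. Under the 60th it was 3, namely Alox5ap, Aloxe3 and Ptges. The median of the leukocyte lipoxygenase genes was at least 0.86 under the 20th percentile floor, because Alox15 then counted as measured with a bound of 0.34. The medians of the epidermal and prostaglandin groups moved by less than the technical SD under every alternative run. Each of these medians rested on 1 gene under the 60th percentile floor. Of 8894 measured genes 202 were called higher and 97 lower as reported. At the 1.5-fold limit the counts were 605 and 567, and at the 3-fold limit 61 and 9. With the 20th percentile floor 392 and 257 of 10893 measured genes were called. With the 60th, where fewer genes were measured, the counts were 123 and 45. Under the 60th percentile floor the log2 ratio of Pla2g7 was at least 0.37 and that of Mgst2 at least 0.30. Both are bounds, because the wild-type signals of these genes lay below that floor. Without suffixed probe sets Ptgds was at -0.87 and Pla2g7 had no probe set left. No measured member changed sign under any alternative. No paired analysis was possible because each genotype has 1 array. Signals near the floor limit Alox12b, Alox15 and Ptgs2, for which no fold can be read.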
